A study of Mus musculus with 36 samples.

Results

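The Hox genes of the mouse were followed in embryonic stem cells and embryoid bodies with and without the long noncoding RNA LncCPR. Members were all gene entries named Hoxa, Hoxb, Hoxc or Hoxd with a paralog number. They came to 39 genes of the 37561 gene entries. Described and counted here are 38 of them, 10 in the HoxA cluster on chromosome 6, 10 in HoxB on chromosome 11, 9 in HoxC on chromosome 15 and 9 in HoxD on chromosome 2. Hoxa3 had more than 1 entry, and the more abundant was used. Control cells were the AB2.2 line. Knockout cells were AB2.2 cells from which the LncCPR gene had been cut out with Cas9 and a pair of guides, sorted singly and expanded, so a knockout line descends from 1 cell; how many lines the libraries stand for is not given in the sources used here. Both genotypes were sampled undifferentiated with the cytokine LIF (day 0) and, after LIF was withdrawn, as whole hanging-drop embryoid bodies at days 3, 5, 8, 10 and 12. Each of the 12 groups had 3 libraries of total RNA, 36 in all. The labels do not say whether these were separate cultures, so p-values measure only the spread between libraries, which may be technical.

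Hox genes encode homeodomain transcription factors that give cells their position along the head-to-tail axis. Within a cluster the genes are numbered in paralog groups from 1 at the 3′ end to 13 at the 5′ end, and genes of low number are switched on earlier and reach further towards the head than genes of high number. In undifferentiated stem cells the clusters are covered by Polycomb repressors, and retinoic acid, Wnt and FGF signals and Cdx factors open them as the trunk forms. Hox proteins bind DNA together with partners of the TALE homeodomain class, the Pbx and Meis proteins. In the early heart, anterior Hox genes such as Hoxb1 mark progenitors of the second heart field. Genes of paralogs 1 to 3 are called anterior here (7 genes), 4 to 8 central (15 genes) and 9 to 13 posterior (16 genes).

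Values are the deposited FPKM (fragments scaled to transcript length and library size), which allow levels to be compared between genes. They carry no read counts, so absolute depth is unknown. Relative depth, read from entries seen in few libraries, spanned 0.566 to 1.84, a 3.25-fold range, and was lowest in knockout replicate 1 at day 8. The tables were deposited 1 per day and may have been scaled separately, so levels across days are described and not tested, except in 1 comparison of the knockout effect between days, given with its limit. Replicates of a group correlated at r = 0.987 to 0.995 across genes on the log2 scale. The Oct4 gene Pou5f1, which defines undifferentiated stem cells, stood at 505 ± 13.7 FPKM in control and 598 ± 12.9 in knockout cells at day 0 (SD, n = 3). The deleted gene itself was not analysed here. In embryoid bodies, fewer cells that express a gene and less RNA per cell cannot be told apart.

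The 38 Hox genes were of low abundance in every library. The highest value of any of them was 2.91 FPKM, for Hoxa13 in 1 control library at day 12. Of the 38 genes, 13 reached 1 FPKM in at least 1 library and 25 in none. By group mean, control cells had 0 genes at 1 FPKM or more up to day 8, 4 at day 10 (Hoxa10, Hoxa13, Hoxc8 and Hoxd8) and 6 at day 12, when Hoxc4 and Hoxc6 were added. Knockout cells had 0 such genes up to day 10 and 1 at day 12 (Hoxd8). At 2 FPKM only Hoxa13 remained, in control cells at day 12. With the bar at 0.5 FPKM the counts were 3, 1, 2, 10, 11 and 15 in control and 1, 0, 0, 0, 1 and 4 in knockout cells over the 6 days. The control mean was highest at day 12 for 22 genes, at day 10 for 5 and at day 8 for 6. In the knockout the mean was highest at day 12 for 17 genes and at day 10 for 12. Every one of the 38 genes was above 0 in at least 1 library, and the least abundant did not pass 0.137 FPKM in any. In control cells Hoxb1 was highest at day 5, Hoxa7 at day 3, and Hoxb13, Hoxc12 and Hoxc13 at day 0.

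**Figure D1:**
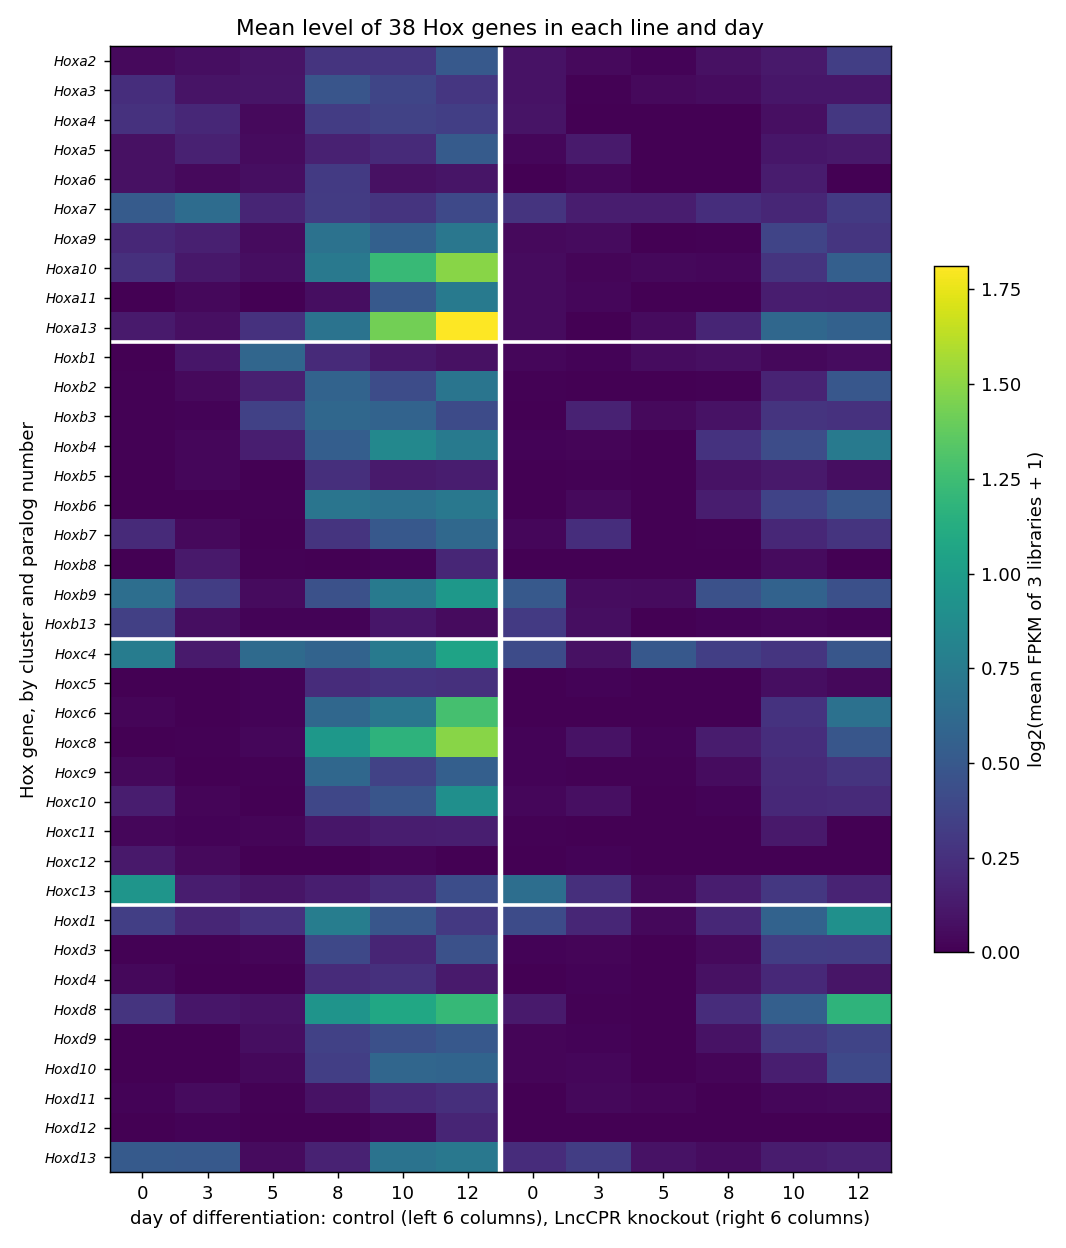
Mean level of 38 Hox genes (rows, by cluster and paralog number) in the 6 days of control and of LncCPR-knockout cells (columns), as log2(mean FPKM of 3 libraries + 1). In control cells most rows brighten from day 8, and in knockout cells few do before day 10; the brightest cell is Hoxa13 in control cells at day 12.

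The summed FPKM of the 38 genes gives the course in brief. In the 3 control libraries it was 4.75, 5.89 and 5.12 at day 0, 2.71 to 2.98 at day 5, 15.8, 10.5 and 10.9 at day 8 and 20.8, 23.8 and 20.3 at day 12. In the knockout libraries it was 3.34, 2.52 and 2.87 at day 0, 0.900 ± 0.0815 at day 5 (SD, n = 3), 2.18, 2.46 and 2.58 at day 8 and 9.65 ± 0.606 at day 12 (SD, n = 3). No knockout library reached the lowest control library of its day at any of the 6 days. At day 3 the gap was narrow, between 1.99 in knockout replicate 3 and 2.01 in control replicate 1. That control library had the lowest relative depth of its group, 0.651. The control mean was 1.81 times the knockout mean at day 0, 1.66 times at day 3, 3.19 times at day 5, 5.15 times at day 8, 2.43 times at day 10 and 2.24 times at day 12. The sums were not tested. The knockout libraries of day 12, at 8.96, 9.91 and 10.1, all lay below the control libraries of day 8 (12.4 ± 2.96, SD, n = 3). These days come from different tables.

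**Figure D2:**
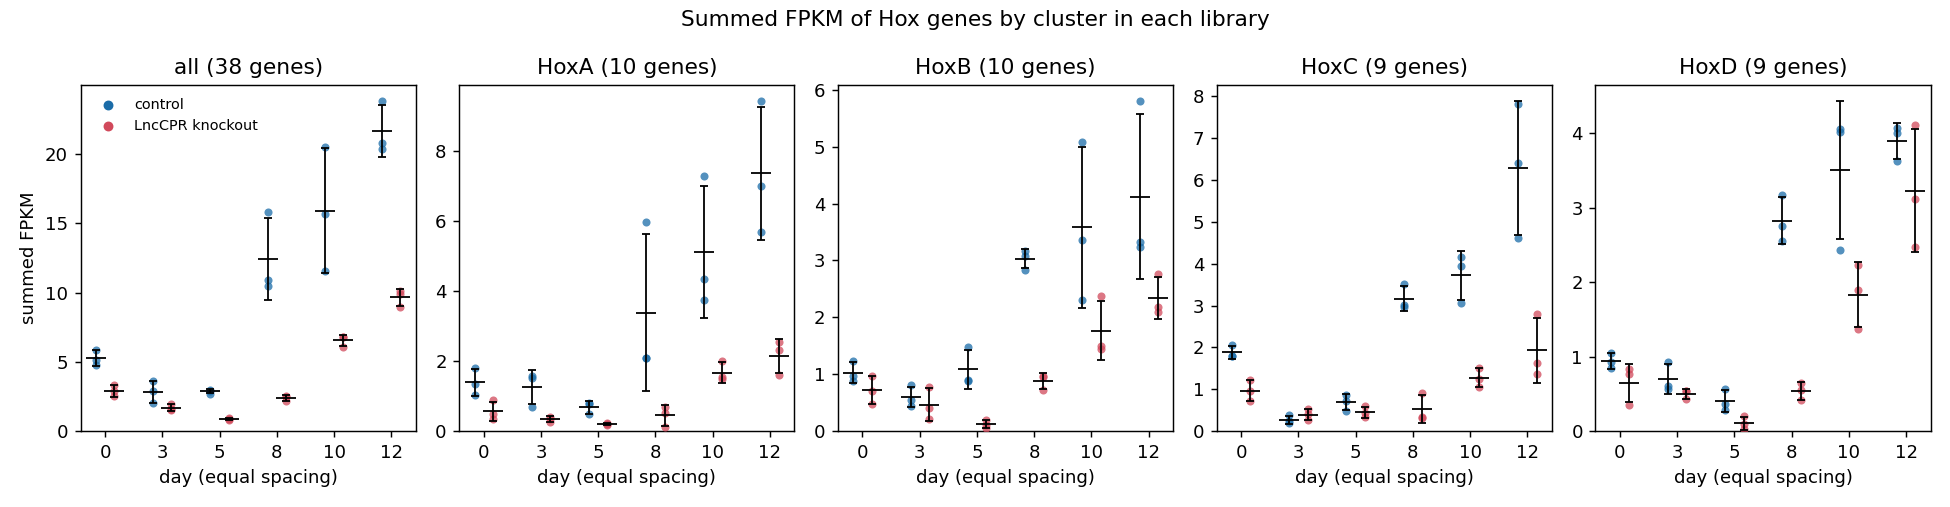
Summed FPKM of the 38 Hox genes and of each cluster (vertical axes, different scales) by day (horizontal axis, equal spacing). Points are libraries, and bars are the mean ± SD of 3 libraries. The sum of all genes is lower in every knockout library than in every control library of its day. HoxB sums overlap in undifferentiated cells and at days 3 and 10, HoxC sums at days 3 and 5, and HoxD sums at day 12. The HoxC mean at day 3 is higher in the knockout (0.275 in control, 0.399 in knockout cells).

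Undifferentiated cells already held a small set of Hox transcripts, central and posterior among them. Hoxc13, a posterior gene of hair and tail, was at 0.926 ± 0.108 in control and 0.575 ± 0.226 FPKM in knockout cells (SD, n = 3). Hoxb9 was at 0.578 ± 0.0706 against 0.419 ± 0.117, and Hoxc4 at 0.696 ± 0.136 against 0.335 ± 0.068 (SD, n = 3). Hoxb13, the most posterior HoxB gene, was at 0.267 ± 0.0301 and 0.235 ± 0.252 (SD, n = 3), with overlap. The 10 HoxA genes counted summed to 1.04, 1.80 and 1.34 FPKM in control libraries and to 0.878, 0.480 and 0.359 in knockout libraries, without overlap. Among them Hoxa7, a gene of the trunk, was at 0.432 ± 0.223 against 0.208 ± 0.118 at day 0, with overlap, and at 0.561 ± 0.225 against 0.107 ± 0.0639 at day 3, without it (SD, n = 3). Genes of chromosome 6 as a whole stood 0.247 lower on the log2 scale in the knockout than other genes at day 0, and 0.260 lower at day 3, and the part of this in the HoxA values was not tested. At days 5 to 12 the chromosome 6 difference was between -0.00578 and 0.0129. Tests were made with limma on the scale log2(FPKM + 1), in a fit limited to genes averaging at least 1 FPKM in the day's libraries. None of the 38 genes reached that level at day 0, where 8.03% of tested genes were called lower and 6.49% higher at a Benjamini-Hochberg adjusted p under 0.05. Without the filter, 0 of 34 were called by limma at day 0, where 1.72% of all entries were called lower and 1.29% higher, and 4 had an unadjusted p under 0.05, 3 of them lower.

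At day 5 Hoxc4 was the only gene of this early set still near 0.5 FPKM, at 0.668, 0.303 and 0.656 in control and 0.381, 0.334 and 0.524 in knockout libraries, with overlap. Anterior HoxB genes were then listed in control cells. Hoxb1, which maintains its own expression in the hindbrain and marks cardiac progenitors, was at 0.627, 0.214 and 0.705 FPKM in control libraries. In knockout libraries it was listed at 0, 0.0971 and 0.036. Hoxb1 was then the highest HoxB gene in control cells, and its level there was lower at day 8 (0.207, 0 and 0.274). Hoxb2 was at 0.0377, 0.0782 and 0.242 in control libraries at day 5 and at 0, 0 and 3.6e-07 in knockout libraries. Hoxd1 was at 0.181, 0.2 and 0.215 in control libraries and 0.0402, 0.0362 and 0 in knockout libraries. Summed, the 3 anterior HoxB genes came to 0.910 ± 0.332 FPKM in control and 0.0781 ± 0.106 in knockout cells (SD, n = 3), without overlap. None of the 38 genes reached the level needed for the filtered fit at days 3 and 5, in which 0.668% and 3.32% of tested genes were called lower and 1.09% and 7.07% higher. Without the filter, limma called 1 of 33 Hox genes at day 5, Hoxd1 (log2 difference -0.23, SE 0.03, Benjamini-Hochberg adjusted p = 0.0285), where 0.777% of all entries were called lower and 0.749% higher. This call was lost in each of the 6 fits that left out 1 library (adjusted p = 0.0554 to 0.129 by limma). At day 3 limma without the filter called 0 of 38 Hox genes, against 0.00746% of all entries lower and 0.00% higher, and 6 had an unadjusted p under 0.05, 5 of them lower. The depth of the day 5 libraries was 1.04 to 1.84 in control and 1.03 to 1.15 in knockout cells, and 19 to 29 of the 38 genes were listed above 0 in control libraries against 7 to 11 in knockout libraries.

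At day 8 control cells held transcripts of all 4 clusters, and knockout cells held less of each. Of the 38 genes, 34 had a lower mean in the knockout and 1 a higher one. For 20 genes every knockout library lay below every control library, 57.1% of the 35 listed above 0, where this held for 7.28% of all entries above 0. None of them had all knockout libraries higher, against 8.35% of all entries. The 20 were 3 HoxA, 6 HoxB, 5 HoxC and 6 HoxD genes, and 5 anterior, 9 central and 6 posterior genes. The corresponding count was 21 without the shallow knockout replicate 1 (an alternative chosen after seeing the data). Leaving out a library cannot lower this count, so it does not show whether the result depends on that library. At day 0 the lower count was 7 genes, 20.6% against 13.5% of all entries, and 1 gene (Hoxa11) was higher, against 9.91%. At day 3 the lower count was 5 genes, 13.2% against 2.98%, and 1 gene (Hoxb3) was higher, against 9.54%. At day 5 the lower count was 9 genes, 27.3% against 9.66%, and 0 were higher, against 13.8%.

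Single genes show the size of the difference at day 8. Hoxb2, a target of Hoxb1 in the hindbrain, was at 0.551, 0.389 and 0.532 FPKM in control libraries and at 7.57e-05, 0 and 0.0229 in knockout libraries. Hoxb6, a gene of the trunk and lateral mesoderm, was at 0.825, 0.537 and 0.528 against 0.268, 0 and 0.0555. Hoxc8, which specifies thoracic identity, was at 0.828, 0.942 and 1.10 against 0.236, 0.0645 and 0. All 3 were without overlap between the lines. Hoxa9, known from blood progenitors, was at 0.915, 0.657 and 0.235 in control libraries and at 0, 0 and 0.0265 in knockout libraries. Hoxd9, a limb and lumbar gene, was at 0.203, 0.237 and 0.377 against 0, 0.035 and 0.156. Hoxb4, a gene of the hindbrain, neck and blood progenitors, was at 0.456 ± 0.102 in control and 0.204 ± 0.101 in knockout cells (SD, n = 3). Hoxb9 overlapped, with values of 0.0863 to 0.605 in control and 0.131 to 0.806 in knockout libraries. Hoxa5, a gene of the cervical region and lung, was listed at 0.364, 0 and 0 in control libraries and at 0 in all knockout libraries.

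Hoxd1 differed in the same direction at day 8 as at day 5, at 0.993, 0.601 and 0.526 FPKM in control and 0.147, 0.164 and 0.138 in knockout libraries. Hoxd8 was at 0.772, 0.853 and 1.12 against 0.245, 0.151 and 0.126. Hoxa10 was at 1.08, 0.546 and 0.347 against 0.0535, 0 and 0.0177, and Hoxa13 overlapped, at 1.17, 0.504 and 0.171 against 0, 0.128 and 0.286. The 10 HoxA genes counted summed to 5.97, 2.09 and 2.08 FPKM at day 8 in control libraries and to 0.118, 0.531 and 0.703 in knockout libraries, without overlap. Control sums were 5.98 times those of the knockout for HoxC, 5.24 times for HoxD and 3.41 times for HoxB.

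None of the 38 genes was abundant enough for the filtered fit at day 8, in which 2.00% of tested genes were called lower and 1.28% higher. Without the filter, limma called 1 Hox gene, Hoxb2 (-0.56, SE 0.06, Benjamini-Hochberg adjusted p = 0.0263), where 0.436% of all entries were called lower and 0.0709% higher. A further 18 of the 35 genes tested had an unadjusted p under 0.05, all lower. The Hoxb2 call was lost in each of the 6 fits that left out 1 library, with adjusted p of 0.0636 to 0.155. Hoxb2 overlaps Hoxb3os, a transcript of the opposite strand, and the strand setting of the authors' counting is not given, so their reads cannot be told apart. Hoxb3os was itself lower at day 8, at 3.33 ± 0.605 against 0.430 ± 0.0775 FPKM (SD, n = 3).

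**Figure D3:**
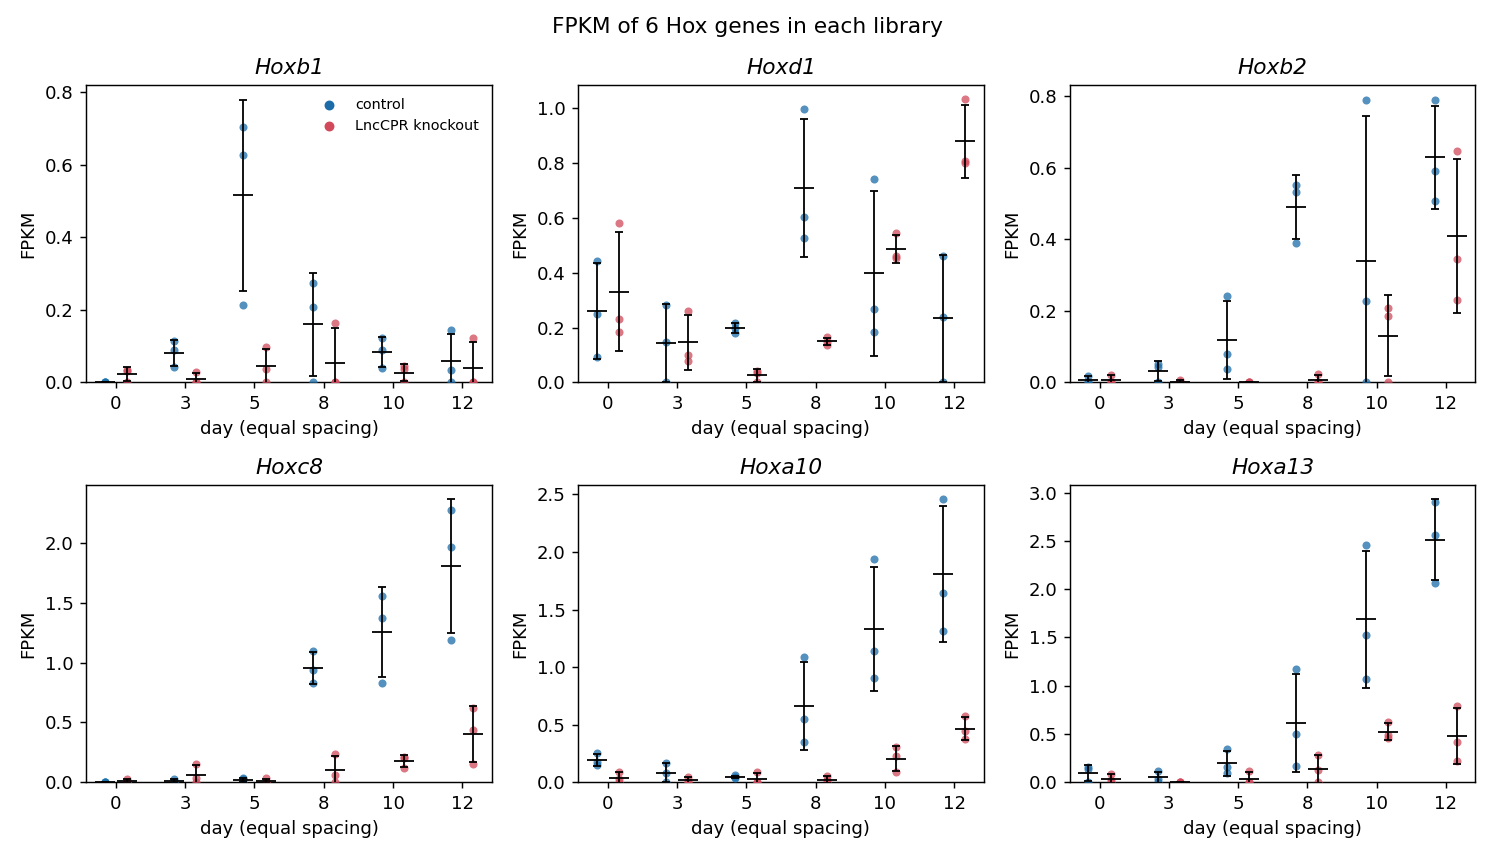
FPKM of Hoxb1, Hoxd1, Hoxb2, Hoxc8, Hoxa10 and Hoxa13 (vertical axes, different scales) by day (horizontal axis, equal spacing). Points are libraries, and bars are the mean ± SD of 3 libraries. Hoxb1 has its highest values in control cells at day 5, Hoxd1 lies below control in all knockout libraries of days 5 and 8 and above it in those of day 12, and Hoxc8, Hoxa10 and Hoxa13 stay lower in the knockout at days 10 and 12.

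At day 10 the lines were apart in genes of all 4 clusters, 5 in HoxA, 2 in HoxB, 3 in HoxC and 3 in HoxD. Hoxa13, the terminal gene of its cluster and a determinant of digits and of the allantois and hindgut, was at 2.46, 1.53 and 1.07 FPKM in control libraries and at 0.487, 0.456 and 0.622 in knockout libraries. It fell by 0.79 (SE 0.21, limma adjusted p = 0.0214). It was the only one of the 38 tested, and 5.12% of all tested genes were called lower. When control replicate 1 was left out Hoxa13 was under the filter and not tested, and without the filter its adjusted p was 0.107 by limma. Hoxa10, a gene of the lumbar region and reproductive tract, was at 1.94, 1.14 and 0.909 against 0.225, 0.302 and 0.0902, and stood below the filter. Without the filter limma called Hoxc8 (-0.92, SE 0.14, adjusted p = 0.0409) and Hoxc4 (-0.47, SE 0.06, adjusted p = 0.0305) lower, where 1.30% of all entries were called lower and 1.78% higher. Each of these calls remained in 1 of the 6 fits that left out 1 library, with adjusted p of 0.0483 to 0.112 for Hoxc4 and 0.0412 to 0.138 for Hoxc8 by limma. Hoxc8 was at 1.56, 1.37 and 0.832 in control and 0.119, 0.212 and 0.201 in knockout libraries, and Hoxc4 was at 0.625, 0.646 and 0.769 in control and 0.214, 0.238 and 0.192 in knockout libraries. In all, 13 of the 38 genes were lower without overlap, 34.2% against 7.89% of all entries, and 0 were higher, against 18.8% of all entries.

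At day 12 the lines overlapped in most anterior and central genes and were apart in 10 of the 16 posterior ones. Of the 5 genes tested among the 38, 3 fell and 0 rose, where 3.48% of tested genes were called lower and 3.22% higher. Hoxa13 was at 2.07, 2.91 and 2.57 FPKM in control libraries and at 0.418, 0.792 and 0.218 in knockout libraries, and fell by 1.26 (SE 0.21, limma adjusted p = 0.0106). Its adjusted p stayed under 0.05 in all 6 fits that left out 1 library, from 0.0167 to 0.0440. Hoxc8 was at 2.27, 1.19 and 1.96 against 0.150, 0.618 and 0.436, and fell by 1.00 (SE 0.23, limma adjusted p = 0.0373). Hoxa10 was at 1.32, 2.46 and 1.64 against 0.575, 0.443 and 0.379, and fell by 0.92 (SE 0.21, limma adjusted p = 0.0362). Of the fits that left out 1 library and tested them, 1 of 4 kept the Hoxc8 call and 1 of 5 the Hoxa10 call, with adjusted p of 0.0350 to 0.115 and 0.0491 to 0.103. Without the filter, which raises the number of entries tested to 25877, none of the 3 calls was kept by limma (adjusted p = 0.0641 for Hoxa13, 0.0985 for Hoxa10 and 0.115 for Hoxc8), and with a pseudocount of 0.1 that of Hoxc8 was lost (0.0524). Hoxc8 lies within the span of a Hoxc5 transcript of the same strand, and reads there could be split between them. Hoxa10 and Hoxa13 overlap no other annotated gene.

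The other 2 of these tested genes did not pass at day 12. Hoxd8, a central gene of the trunk, was at 1.98, 1.16 and 0.826 against 0.746, 0.797 and 2.26 (-0.07, SE 0.29, adjusted p = 0.915 by limma). Hoxc6 ranged from 0.266 to 2.03 in control and from 0.0224 to 1.32 in knockout libraries (-0.58, SE 0.40, adjusted p = 0.411 by limma). Hoxd1 was below the filter, at 0, 0.239 and 0.461 in control and 1.03, 0.805 and 0.798 in knockout libraries. It was the only one of the 38 higher without overlap, 2.70% of the 37 listed above 0 against 10.6% of all entries.

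At day 12, 14 of the 38 genes were lower without overlap, 37.8% of the 37 listed above 0 against 9.37% of all entries, and 10 of them were posterior, 4 central and 0 anterior. Hoxc10, a lumbar and hindlimb gene, was at 1.16, 0.781 and 0.663 FPKM in control libraries against 0.280, 0.165 and 0.0361 in knockout libraries. Hoxa9 was at 0.468, 1.02 and 0.458 against 0.254, 0.0978 and 0.291. Hoxd13, the terminal HoxD gene, was at 0.523, 0.658 and 0.768 against 0.155, 0.0953 and 0.103. Hoxb9 was at 1.07, 1.23 and 0.575 against 0.185, 0.368 and 0.530, and Hoxa5 at 0.363, 0.293 and 0.646 against 0.163, 0.111 and 0. Without the filter, limma called Hoxd13 (-0.56, SE 0.07, adjusted p = 0.0465) and Hoxd11 (-0.21, SE 0.03, adjusted p = 0.0455) lower, where 0.591% of all entries were called lower and 0.251% higher. Both calls were lost in each of the 6 fits that left out 1 library. In contrast, Hoxb4 was at 0.581, 0.809 and 0.620 in control and 0.666, 0.571 and 0.779 in knockout libraries, and Hoxb2, Hoxb6 and Hoxd9 overlapped as well. Hoxd12 was at 0.114, 0.0851 and 0.218 in control libraries and listed at 0 in all knockout libraries. Hoxd11 was at 0.205, 0.183 and 0.169 against 0.0283 ± 0.0119 in knockout cells (SD, n = 3), and overlaps another gene of its own strand. Hoxa11, a forelimb and reproductive tract gene, was at 0.666 ± 0.252 against 0.0997 ± 0.0961 (SD, n = 3), and overlaps Hoxa11os of the opposite strand. These are low levels, and for all 3 genes the values of the lines did not overlap. Hoxb13 was at 0.0713 FPKM or less in every library of both lines.

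**Figure D4:**
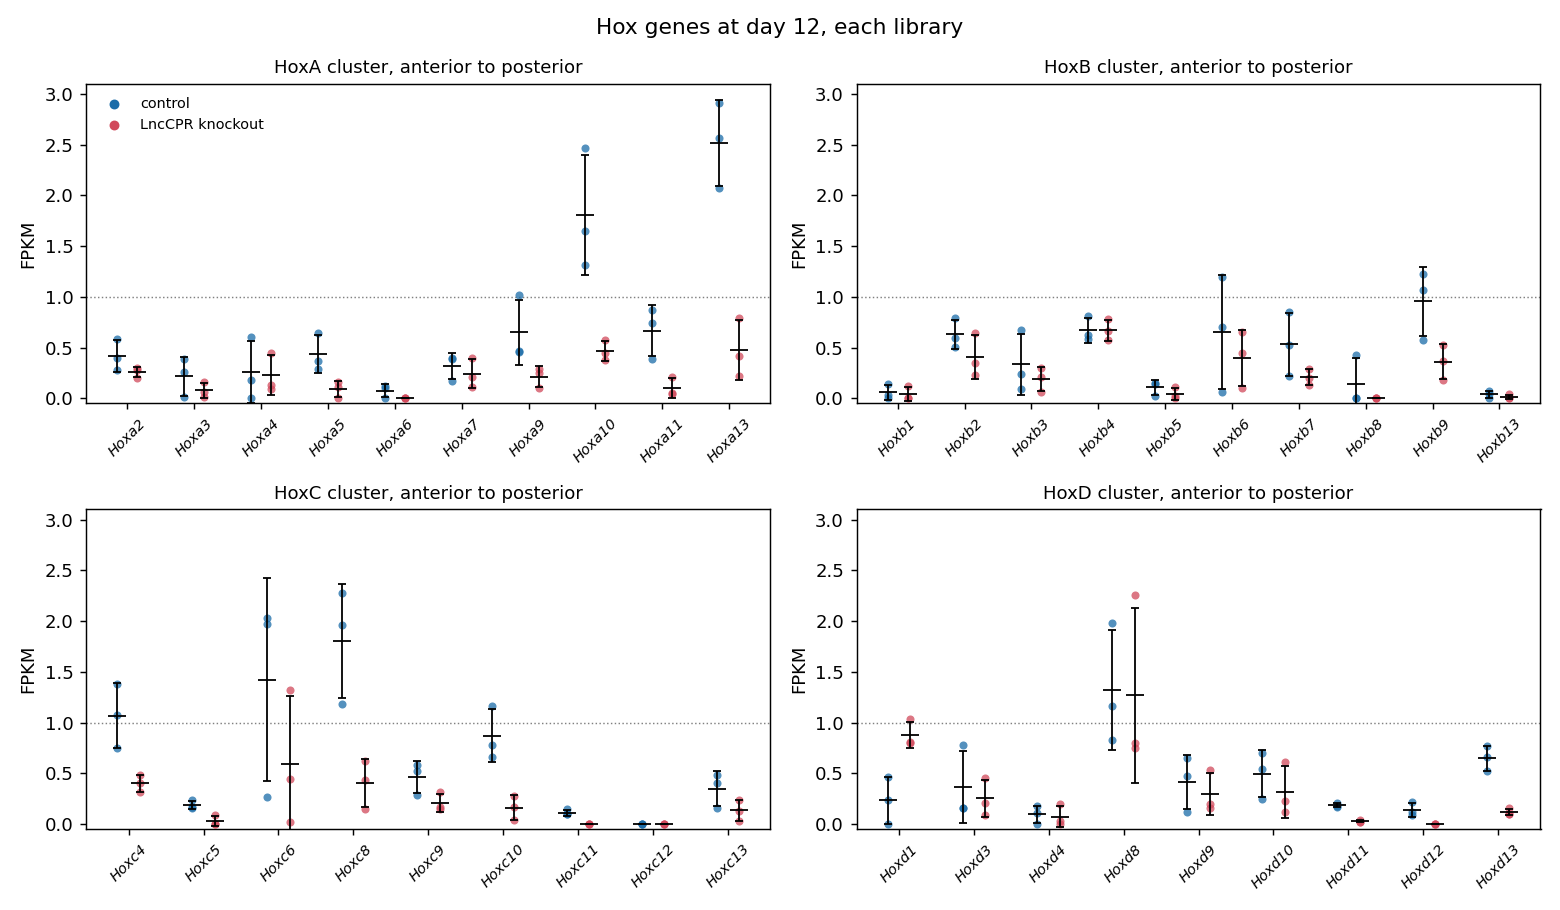
FPKM of each of the 38 Hox genes at day 12 (vertical axis) along the 4 clusters from anterior to posterior (horizontal axis). Points are libraries, bars are the mean ± SD of 3 libraries, and the dotted line marks 1 FPKM. Hoxd1 lies higher in the knockout, while Hoxa10, Hoxa13, Hoxc8, Hoxc10 and Hoxd13 lie lower without overlap.

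The 3 paralog classes differed in the days at which the lines were apart. At day 0 the anterior sums overlapped (0.491 ± 0.230 FPKM in control and 0.499 ± 0.217 in knockout cells), while the central sums, 1.87 ± 0.386 against 0.779 ± 0.310, and the posterior sums, 2.89 ± 0.183 against 1.63 ± 0.172, did not (SD, n = 3). At day 3 the posterior sums alone were apart. At day 5 all 3 classes were apart, with an anterior control mean 8.72 times that of the knockout, against 1.96 times for central and 2.52 times for posterior genes. At day 8 anterior genes summed to 2.79 ± 0.892 FPKM in control and 0.409 ± 0.279 in knockout cells, central genes to 5.56 ± 0.984 and 1.16 ± 0.527, and posterior genes to 4.05 ± 1.33 and 0.838 ± 0.536 (SD, n = 3), all without overlap. At day 10 the anterior sums overlapped, and the control mean was 2.63 times that of the knockout for central and 2.66 times for posterior genes, both without overlap. At day 12 the anterior sum was 2.00, 2.86 and 1.91 in control libraries and 2.13, 2.12 and 2.09 in knockout libraries, with overlap. The central sum was 9.10 ± 0.767 against 4.65 ± 0.743, and the posterior sum 10.3 ± 1.89 against 2.89 ± 0.239 (SD, n = 3), both without overlap. The control posterior mean was thus 3.57 times that of the knockout. The knockout-to-control ratio of the anterior sums at day 12 was 0.936, and 1.08 without control replicate 2, so its direction rests on that library. With anterior taken as paralogs 1 to 4 it was 0.801, and with posterior taken as 10 to 13 the direction did not change. Of the 7 anterior genes 6 had a lower mean in the knockout at day 12, 0 of them without overlap. Hoxd1 alone had a higher one, at 1.03, 0.805 and 0.798 in knockout against 0, 0.239 and 0.461 in control libraries. The anterior sums include Hoxd1, so their overlap does not show that the anterior genes as a class had reached control levels.

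**Figure D5:**
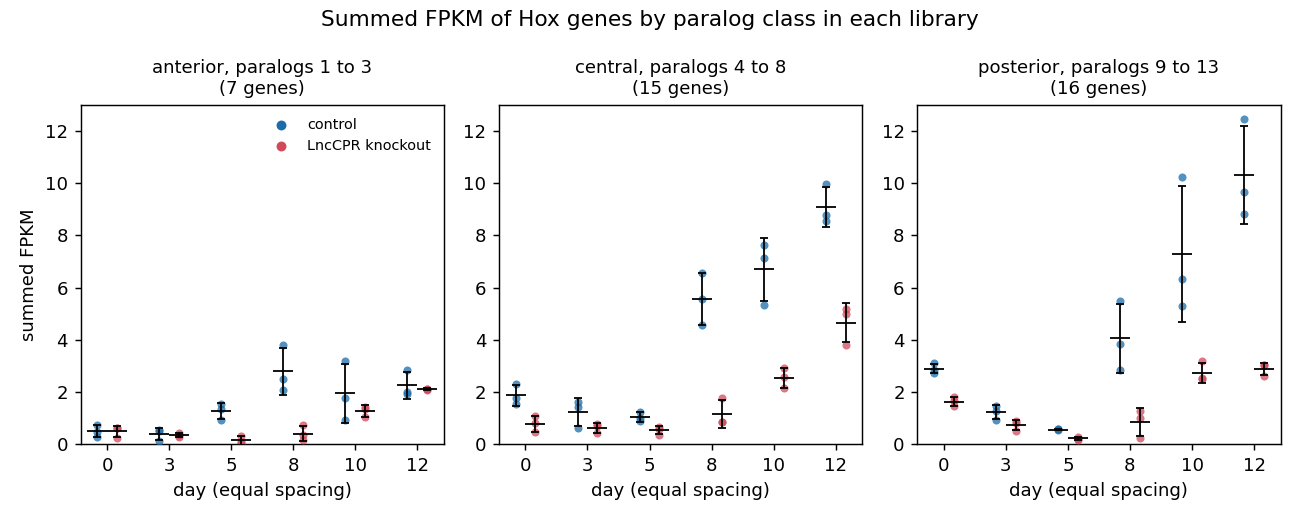
Summed FPKM of anterior, central and posterior Hox genes (vertical axes, 1 scale) by day (horizontal axis, equal spacing). Points are libraries, and bars are the mean ± SD of 3 libraries. All 3 classes are lower in the knockout at day 8; at day 12 the anterior sums overlap and the posterior sums are 10.3 in control against 2.89 in knockout cells.

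Across genes at day 12, the knockout minus control difference on the scale log2(mean FPKM + 0.1) ran with paralog number in HoxA (Spearman's rho = -0.73, 10 genes) and HoxD (-0.88, 9 genes). The rho was -0.49 in HoxB (10 genes) and 0.43 in HoxC (8 genes), and -0.54 over the 37 genes listed above 0. These genes share the same 6 libraries and are not independent, so the values are a description. At day 8 the rho over the 35 genes then above 0 was 0.24, with 0.71 in HoxD, 0.50 in HoxB, 0.26 in HoxC and -0.0061 in HoxA. At day 10 it was -0.13 over 38 genes, from -0.73 in HoxD to 0.85 in HoxC. At day 5 it was 0.48 over 33 genes, from -0.05 in HoxC to 0.81 in HoxB. The sign thus varied by day and cluster. HoxC has no anterior gene, and its central Hoxc8 and its posterior Hoxc10 were both lower at day 12.

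The clusters also differed in whether the lines were apart at day 12. HoxD sums were 4.07, 4.01 and 3.62 FPKM in control libraries and 3.11, 2.47 and 4.11 in knockout libraries, with overlap. HoxC sums were 6.28 ± 1.60 against 1.93 ± 0.771, HoxA 7.36 ± 1.89 against 2.15 ± 0.492, and HoxB 4.12 ± 1.45 against 2.34 ± 0.365 (SD, n = 3), each without overlap. The sum of the anterior HoxD genes, Hoxd1 and Hoxd3, was higher in the knockout (0.598 ± 0.190 in control, 1.13 ± 0.207 in knockout cells; SD, n = 3). Of these, only Hoxd1 was higher. Hoxd3 had a lower mean with overlap, at 0.776, 0.158 and 0.159 in control and 0.210, 0.453 and 0.0930 in knockout libraries. The sum of the posterior HoxD genes was lower (1.89 ± 0.588 against 0.757 ± 0.299; SD, n = 3). Of the 10 HoxA genes counted, the highest in control cells was Hoxa7 at days 0 and 3, Hoxa10 at day 8 and Hoxa13 at days 5, 10 and 12. In the knockout it was Hoxa7 up to day 8 and Hoxa13 at days 10 and 12. The highest HoxC gene in control cells was Hoxc8 from day 8 on. In the knockout it was Hoxc4 at days 5 and 8, Hoxc13 at days 0, 3 and 10, and Hoxc6 at day 12. Hoxd8 led HoxD at days 8 and 12 in both lines. In HoxB, Hoxb9 led at days 0, 3 and 12 in control cells and at days 0, 8 and 10 in the knockout, and Hoxb7 led there at day 3.

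Whether the knockout effect differed between days was tested with a limma F test over the 36 libraries. None of the 38 genes averaged at least 1 FPKM over the whole series, the level needed for that fit, in which 17.1% of tested genes passed at a Benjamini-Hochberg adjusted p under 0.05. Without the filter, 11 of the 38 passed, 28.9% against 8.85% of all entries. On log2(FPKM + 1) the difference of a low gene follows its level, so a fold that is the same on every day also gives differences that vary by day, and scaling between the tables enters. A pass therefore does not show that the fold differed between days. The genes were Hoxa10, Hoxa11, Hoxa13, Hoxb1, Hoxb4, Hoxc8, Hoxc9, Hoxc10, Hoxd1, Hoxd12 and Hoxd13, of which 7 are posterior. Hoxc8 had the lowest adjusted p, 8.14e-06 by limma. Hoxd12 was listed at 0 in every knockout library, and in control cells its mean was 0.139 FPKM at day 12 and 0.0219 or less before. Hoxd1 was lower in every knockout library at day 5 and higher in every one at day 12.

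Promoters from RefSeq (GRCm38.p6) were at hand for 22 of the 38 genes, in 24 windows, and the 250 bases upstream of each start were read. The build is not the mm9 build of the deposited values, and no measurement of binding or methylation is at hand for these windows. Hoxa13 and Hoxd13, the terminal genes of their clusters, are shown as the windows with the most CG dinucleotides, and Hoxd8 as one with few. Capitals mark CG dinucleotides, the sites of DNA methylation.
Hoxa13, chr6:52260881-52261130, minus strand: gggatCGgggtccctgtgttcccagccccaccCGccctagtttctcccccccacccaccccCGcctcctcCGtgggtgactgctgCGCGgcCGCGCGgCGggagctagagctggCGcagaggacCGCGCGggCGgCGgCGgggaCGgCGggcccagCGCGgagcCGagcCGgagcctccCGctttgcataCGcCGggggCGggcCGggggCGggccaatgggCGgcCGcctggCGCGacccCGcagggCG
Hoxd13, chr2:74667975-74668224, plus strand: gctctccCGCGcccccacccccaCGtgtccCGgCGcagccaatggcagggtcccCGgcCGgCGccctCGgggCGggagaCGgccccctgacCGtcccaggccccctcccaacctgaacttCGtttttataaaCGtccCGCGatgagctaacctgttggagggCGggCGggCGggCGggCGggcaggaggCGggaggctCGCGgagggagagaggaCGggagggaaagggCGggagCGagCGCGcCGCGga
Hoxd8, chr2:74704365-74704614, plus strand: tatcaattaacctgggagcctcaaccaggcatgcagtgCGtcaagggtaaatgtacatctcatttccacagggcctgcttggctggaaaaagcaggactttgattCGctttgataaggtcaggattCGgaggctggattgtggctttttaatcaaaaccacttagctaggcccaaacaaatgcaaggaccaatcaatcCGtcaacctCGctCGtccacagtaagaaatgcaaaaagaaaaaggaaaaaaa
Hoxa13 held 35 CG dinucleotides, Hoxd13 31 and Hoxd8 6. Their number did not sort the genes by their difference at day 12: Hoxa10, which fell, had windows of 7 and 20, Hoxa9, lower without overlap, had 3, and Hoxd1, higher without overlap, had 24. The median was 12.5 over the 24 Hox windows and 6 over all 32851 windows, of which 2.97% held as many as Hoxa13.

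Because partners of the TALE class moved in these data, the motif TGATNNAT, a core bound by Pbx and Hox proteins together, was sought on both strands. It was found in 4 of the 24 Hox windows, those of Hoxa2, Hoxb1, Hoxb8 and Hoxd11 (16.7%), and in 7.68% of all windows. Each is shown with up to 40 bases on either side, the match in capitals, as the motif or its reverse complement.
Hoxd11, chr2:74682210-74682297, plus strand: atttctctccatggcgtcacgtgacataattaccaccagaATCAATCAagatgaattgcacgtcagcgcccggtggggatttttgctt
Hoxa2, chr6:52164895-52164982, minus strand: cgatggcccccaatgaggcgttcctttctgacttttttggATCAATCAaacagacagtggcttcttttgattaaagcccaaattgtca
Hoxb8, chr11:96281854-96281904, plus strand: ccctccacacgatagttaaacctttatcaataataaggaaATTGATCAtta
Hoxb1, chr11:96365556-96365643, plus strand: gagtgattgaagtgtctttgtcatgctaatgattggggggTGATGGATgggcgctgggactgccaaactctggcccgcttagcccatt
The Hoxb1 match begins 162 bases before the start, and Hoxb1 is known to act on its own gene together with Pbx. The Meis core TGACAG was found in 2 of the 24 windows (Hoxa2 and Hoxa3, 8.33%) and in 15.9% of all windows. The nuclear receptor half-site AGGTCA was found in 6 of them (25.0%) and in 14.0% of all windows. The motif TTTAT, bound by Cdx and posterior Hox proteins, was found in 9 of them (37.5%) and in 37.3% of all windows, and may overlap the TATA box. A match is a description of the letters and not of binding.

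The partners of Hox proteins were more abundant than the Hox genes and also differed. Of 8 TALE genes, 3 fell at day 5 and 0 rose. Meis2 was at 14.2 ± 1.67 FPKM in control and 2.73 ± 0.327 in knockout cells (SD, n = 3; -2.02, SE 0.13, limma adjusted p = 4.24e-06). Meis1 was at 2.27 ± 0.545 against 0.280 ± 0.0928 (-1.34, SE 0.16) and Pknox2 at 2.58 ± 0.172 against 0.884 ± 0.140 (-0.93, SE 0.14). Meis1 fell again at day 8 (15.8 ± 2.58 against 5.94 ± 0.990; -1.28, SE 0.17, limma adjusted p = 0.00270), day 10 and day 12 (31.1 ± 4.13 against 18.3 ± 2.74). Meis2 fell at days 3, 5 and 10. Pknox2 rose at day 12 (4.45 ± 0.529 against 8.16 ± 0.497). Of the TALE genes tested, 0 of 5 fell at day 0, 1 of 6 at day 3, 1 of 8 at day 8, 2 of 8 at day 10 and 1 of 8 at day 12, with 1 rising at day 12. Over the 6 days in order, 8.03%, 0.668%, 3.32%, 2.00%, 5.12% and 3.48% of all tested genes were called lower, and 3.22% were called higher on the last.

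Known upstream regulators of the clusters moved in both directions. Cdx2, which drives central and posterior Hox genes in the tail bud, fell at day 8 (1.89 ± 0.855 against 0.212 ± 0.209 FPKM, SD, n = 3; -1.23, SE 0.25, limma adjusted p = 0.0280) and was at 1.72 ± 0.413 against 1.67 ± 0.714 at day 10. In the retinoic acid pathway, the synthesizing enzyme Aldh1a2 fell at day 5 (1.91 ± 0.139 against 0.152 ± 0.0736) and day 12 (3.18 ± 1.99 against 0.620 ± 0.132), and the degrading enzyme Cyp26a1 fell at day 5 (55.0 ± 6.74 against 30.4 ± 1.57) and rose at day 10 (8.25 ± 1.23 against 16.6 ± 0.944). The receptor Rarb fell at day 10 and Rarg rose, and Rara fell at day 0. T, the brachyury factor of the primitive streak, rose at days 5, 8 and 10, and Fgf8 fell at day 3 and rose at day 10. This list of 14 genes holds activators and also the degrading enzyme Cyp26a1. Of its members, 1 of 2 tested fell at day 0, 1 of 4 at day 3 and 2 of 7 at day 5. At days 8, 10 and 12 the numbers that fell were 1 of 8, 1 of 10 and 1 of 10. The shares of all tested genes called lower were those given beside the TALE genes. The number that rose was 1, 1 and 4 at days 5, 8 and 10 and 0 at the other days, where 7.07%, 1.28% and 15.0% of all tested genes were called higher at days 5, 8 and 10. Rescaling the libraries to each other moved the median of all genes from 0.166 to -0.017 at day 10, from 0.127 to 0.0007 at day 5, from 0.152 to 0.017 at day 3 and from 0.0924 to -0.0182 at day 8.

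Polycomb genes, which keep the clusters silent, and Trithorax genes, which oppose them, were tested at every day. Of 18 listed, 0 of 17 passed at day 3, 0 of 18 at day 12 and 1 of 18 at day 8, where the Polycomb gene Phc1 rose (24.6 ± 2.29 against 50.3 ± 5.94 FPKM, SD, n = 3) and 1.28% of all tested genes were called higher. At day 10, Phc1, Ezh2, Eed and Wdr5 of 18 tested rose and 0 fell, while 15.0% of all tested genes were called higher. With rescaled libraries 1102 genes were called higher and 1605 lower at day 10, against 1946 and 663 as deposited. At day 0, of 17 tested, Eed, Rnf2 and Wdr5 rose and Phc1 and Cbx7 fell, where 6.49% of all tested genes were called higher and 8.03% lower. At day 5, of 17 tested, Phc1 rose and Cbx2 fell, where 7.07% were called higher and 3.32% lower.

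Among 16 RNAs and genes at the flanks of the clusters, 2 were tested at each day. Hoxb3os fell at day 8 (-1.59, SE 0.19, limma adjusted p = 0.00142) and at day 10 (3.38 ± 0.220 against 1.61 ± 0.362 FPKM, SD, n = 3), and did not pass at day 12 (adjusted p = 0.287 by limma). Halr1, a noncoding RNA beside HoxA, was at 29.7 ± 6.28 in control and 28.7 ± 4.74 in knockout cells at day 0 (SD, n = 3; adjusted p = 0.894 by limma), and under 1 FPKM in both lines from day 5. The microRNA entries Mir10a, Mir10b, Mir196a-1 and Mir196b were listed at 0 in every library. Of 6 ParaHox and related genes, Gbx2 was tested at day 0 and rose (8.50 ± 0.403 against 12.4 ± 0.0530; SD, n = 3).

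Markers of several tissues also differed between the lines, some lower and some higher in the knockout. Their part in the Hox differences was not tested. At day 8 the sum of 6 lateral plate and cardiac markers was 87.5 to 110.1 FPKM in control and 31.4 to 38.4 in knockout libraries, with Hand1, Hand2 and Tbx5 lower of 6 tested and none at 0. The sum of 5 blood markers was 32.7 to 37.7 against 7.40 to 8.36, with Hbb-bh1 and Hba-x lower of 3 tested. The sum of 5 genes listed as forebrain markers was 25.4 to 31.9 against 44.6 to 68.8, with Otx2 and Hesx1 higher of 3 tested. In control cells this sum was already 10.2 to 10.8 in undifferentiated cells at day 0 and 68.7 to 86.8 at day 5. The list is therefore not specific to forebrain. The sum of 5 neuromesodermal and tail bud markers was 13.4 to 17.3 against 22.0 to 28.0, with T higher and Cdx2 lower of 3 tested. The sum of 5 hindbrain and spinal cord markers was 10.4 to 12.7 against 8.44 to 10.1, with 0 of 3 passing and Neurog2 at 0 in all control libraries. The sum of 5 paraxial mesoderm markers was 1.76 to 3.01 against 1.57 to 2.62, with none abundant enough to test. The sum of 4 visceral endoderm markers, 90.9 to 226.1 against 116.4 to 147.8, overlapped, with 0 of 4 passing. That of 4 pluripotency markers was 46.3 to 48.9 against 87.7 to 143.7, with Pou5f1 and Nanog higher of 4 tested. Of all genes tested at day 8, 2.00% were called lower and 1.28% higher.

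At day 12 the anterior Hox sums overlapped and the posterior ones did not. Of all genes tested at that day, 3.48% were called lower and 3.22% higher. The lateral plate and cardiac sum was 74.7 to 89.3 FPKM in control and 69.1 to 85.8 in knockout libraries. Of its 6 tested genes, Hand2, Foxf1, Tbx5 and Nkx2-5 were lower and Hand1 was higher. The blood sum was 38.9 to 65.0 against 17.6 to 20.4, with Hba-x and Runx1 lower of 3 tested. The hindbrain and spinal cord sum was 6.32 to 7.60 against 10.6 to 10.9, with Nkx6-1 and Irx3 higher of 3 tested. The visceral endoderm sum was 499.3 to 823.8 against 249.2 to 467.5, with Afp lower and Hnf4a higher of 4 tested. The tail bud sum was 6.87 to 9.43 against 6.86 to 8.86, with 0 of 3 passing. The paraxial sum was 3.15 to 5.77 against 3.53 to 5.44, with Meox1 lower and Pax3 higher of 2 tested. The sum of the genes listed as forebrain markers was 16.8 to 22.0 against 26.0 to 34.2, with Otx2 higher of 2 tested. The pluripotency sum was 31.7 to 87.1 against 34.4 to 49.3, with 0 of 4 passing. No marker list of these had a member at 0 in all libraries of a group except Msgn1 in control cells. Their part in the Hox values was not tested.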

How the data were processed

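Total RNA was sequenced from 36 libraries in 12 groups. The FPKM values are those the authors deposited, in 6 tables of 6 libraries, made with TopHat and Cufflinks on the mouse build mm9, per the submitters' processing notes; versions, settings, annotation, strand setting and scaling between libraries or tables are not given in the sources used here. Cufflinks can list an abundant gene at 0. Hox members and gene lists were chosen with earlier results of these data known. Of several entries of a symbol, that with the highest mean was used (40 entries for 39 genes). Among members and lists, 3 genes are not reported here and enter no count or sum, though the fits hold them.

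Each day was fitted within its table with limma 3.58.1 in R 4.3.3 (trend of variance on abundance) on log2(FPKM + 1), for every gene averaging at least 1 FPKM in that table, two-sided. Calls are at a Benjamini-Hochberg adjusted p under 0.05, over every gene in the fit. With 3 libraries in each arm, the smallest p of an exact permutation is 0.1. A limma F test over 36 libraries compared the effect between days. The fit was tested on simulated data, with changes placed only in genes more abundant than any of the 38 Hox genes. That simulation does not cover recovery at Hox levels. Fold changes on this scale understate those of low genes. Alternatives were a pseudocount of 0.1, no filter, libraries rescaled to the median ratio of genes at 5 FPKM or more, the replicate number as a block, and each library left out. Named genes were Hox genes past the threshold, a panel of 12 Hox genes, the highest gene of each cluster and group, and up to 4 called genes per companion list and day; Hoxd1, Hoxd11, Hoxd13, Hoxc4 at day 5 and the genes named for overlap or lack of it were chosen after their values were seen. Relative depth of a library is an estimate, from the most common ratio of its values to those of each other library over entries above 0 in 2 to 8 libraries, where many values stand for 1 fragment. Overlaps and chromosomes were looked up by gene identifier in the GRCm38 annotation, which held 37 of the 38 genes, all but Hoxd4. Of these, 14 overlap another gene on the same strand, 12 a gene on the other strand and 16 none. Hoxa11, Hoxb6, Hoxc6, Hoxc10 and Hoxd8 are among those with an overlap, and their reads may be shared with the overlapping gene. Tables were handled with Python, pandas and numpy, and plots were made with matplotlib.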

Additional observations from a re-analysis of the deposited data

Results flagged for a closer look

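Without the filter on low values, the knockout effect of 11 of 38 Hox genes differed between days by the limma F test over all days. That was 28.9% of them, against 8.85% of all entries. The Benjamini-Hochberg adjusted p was 8.14e-06 for Hoxc8, 0.00115 for Hoxa10, 0.00242 for Hoxd12, 0.00277 for Hoxd1, 0.00326 for Hoxa11 and 0.00354 for Hoxa13. It was 0.00619 for Hoxc9, 0.0245 for Hoxc10, 0.0258 for Hoxd13, 0.0292 for Hoxb4 and 0.0343 for Hoxb1 by the same limma test. These genes lie below 1 FPKM in most groups, where the difference on log2(FPKM + 1) follows the level, so these values do not show that a fold differed between days. Groups of 3 libraries were not searched for single libraries that stand apart.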

How the results depend on the processing

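Called genes among the 38 Hox genes were few under every setting, and their number moved. With no filter 1 gene was called on day 5, 1 on day 8 and 2 on day 10, where the gene called with the filter was not among them. Of all entries, 0.777%, 0.436% and 1.30% were called lower in these fits. Fits with no filter and rescaled libraries, added after the data were seen, gave 1 called gene for day 5, 4 for day 8 and 3 for day 10. All were lower, where 2.15%, 0.959% and 4.60% of all entries were called lower and 1.13%, 0.291% and 2.61% higher. At day 12 the count was 1 with the replicate block and 2 with no filter (Hoxd11 and Hoxd13, in place of Hoxa10, Hoxa13 and Hoxc8). Whether replicate numbers pair the libraries is not settled: correlations of same-numbered deviations ran from -0.122 to 0.273. At days 3, 5 and 8, 2 of 3 control libraries correlated best with the knockout library of their own number, and at days 0 and 12, 0 of 3. The block raised the called genes of all tested from 210 to 342 at day 3 and from 417 to 590 at day 8. It lowered them from 1770 to 824 at day 0 and from 878 to 464 at day 12. The block changed no other Hox count. Leaving out 1 library gave 0 to 1 called genes at day 10 and 1 to 2 at day 12. With the filter none of the 38 genes was tested for an effect that differs between days. Without it 11 of 38 passed, against 8.85% of all entries. With no filter and rescaled libraries 12 of 38 passed, against 14.6% of all entries. At 2 FPKM the number of genes reached was 0 in control cells at day 10, and at day 12 it was 1 in control and 0 in knockout cells; leaving out 1 library gave 0 to 1 for control day 8 and 0 to 1 for knockout day 12. The knockout-to-control ratio of summed anterior genes at day 12, 0.936 with every library, ran from 0.869 to 1.08 when 1 library was left out, and reversed to 1.08 without control replicate 2. With rescaling the share of higher genes among all called fell from 61.9% to 41.0% (day 3), 68.1% to 42.1% (day 5), 74.6% to 40.7% (day 10) and 48.1% to 29.6% (day 12). How many fragments a Hox value rests on is unknown.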
